A study of Homo sapiens with 11 samples.

Results

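The neddylation knockdowns were compared as a pair with the knockdown of URM1, using 8 of the 11 messenger RNA libraries of the series. The cells were HEK293T, a human embryonic kidney line. They were transfected for 48 h with an siRNA against 1 of 3 genes: siNAE1 at 50 nM in 3 libraries, siUBE2M at 70 nM in 3 libraries, and siURM1 at 60 nM in 2 libraries. The remaining 3 libraries, labelled control siRNA, placed each difference against a baseline. They also entered the fit of all 11 libraries, and with it the filter, the scaling and the estimate of spread. The labels and the methods speak of a control siRNA that targets no gene, while a supplementary legend names the control group without mention of one. For every gene the mean of the siNAE1 group and the siUBE2M group, each with the same weight, was set against the siURM1 group. The genes described are those in which both neddylation knockdowns lay on the same side of siURM1, which held for 11878 of the 18368 genes tested (64.7%). One siRNA product was used per gene and each at its own concentration, so the effects of the gene, the siRNA sequence and the dose cannot be told apart.

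NAE1 and UBA3 form the E1 enzyme that activates NEDD8, a ubiquitin-like protein, and UBE2M is an E2 enzyme that passes NEDD8 on to cullins. Neddylated cullins form active ubiquitin ligases that mark cell cycle regulators, transcription factors and signalling proteins for the proteasome. URM1 is a ubiquitin-like protein with an older role as a sulfur carrier. Activated by MOCS3, it delivers sulfur to the wobble uridine of the tRNAs that read lysine, glutamine and glutamate codons, and it can also be joined to proteins under oxidative stress. The study proposed that NAE1 and UBE2M act on URM1 as well as on NEDD8. The comparison asks in which genes cells with the cascade enzymes knocked down and cells with URM1 knocked down part from each other.

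The targeted transcripts matched the labels in every library. URM1, at chromosome 9 position 128371319 to 128392016 (GRCh38), was at 15.2 and 15.5 CPM (counts per 1000000 TMM-scaled counts) in the siURM1 libraries, at 63.6, 66.3 and 64.7 CPM in siNAE1 cells and at 46.5, 44.6 and 52.8 CPM in siUBE2M cells. NAE1 was at 41.6, 42.6 and 35.2 CPM in siNAE1 cells against 126 and 139.6 CPM in siURM1 cells. UBE2M was at 15.6, 15.6 and 19.1 CPM in siUBE2M cells against 215 and 196 CPM in siURM1 cells. The targeted gene was thus lowest in its own knockdown, with no overlap with the other groups. Total counts ran from 11733163 to 16321391 per knockdown library, and counts from mitochondrially encoded genes took 5.29 to 5.72% of them in siURM1 cells, 4.90 to 5.32% in siNAE1 cells and 4.12 to 4.43% in siUBE2M cells. All 10 HEK293T markers were detected, and the liver cell markers summed to at most 3.16 CPM in any library.

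With the adjusted p (Benjamini-Hochberg, edgeR's quasi-likelihood test) required to be under 0.05 and the log2 fold change to reach 1 or -1, 785 same-side genes differed, which is 4.27% of the genes tested. Of these, 442 were higher in the neddylation knockdowns (2.41%) and 343 were lower (1.87%). In a stricter reading, each knockdown on its own also had to pass both thresholds against siURM1 in the same direction, which left 195 higher genes (1.06%) and 112 lower genes (0.61%). Of the other 478 genes, 281 passed on their own through siNAE1 alone, 189 through siUBE2M alone, and 8 through neither. At the edge of the threshold lay AC093249.6 (log2 fold change 1.01, called) and RIPK2 (1.00, just under it) on the higher side, and ZBTB25 (-1.0, called) and ID4 (-0.99, not called) on the lower side.

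Many called genes were weakly expressed. The mean over the 8 knockdown libraries was at least 10 CPM for 68 of the higher and 56 of the lower genes, and under 1 CPM for 107 and 118. All 6 neddylation libraries lay above both siURM1 libraries in 376 of the 442 higher genes, and below both in 295 of the 343 lower genes, while over all genes tested such separation was seen in 2472 (13.5%) above and 2609 (14.2%) below. Protein-coding genes made up 64.0% of the higher and 68.5% of the lower genes, against 76.3% of the genes tested. The calls rested on 2 siURM1 libraries. Of the 785 genes, 452 were also called without siURM1 replicate 1 and 483 without siURM1 replicate 2, although the totals, 625 and 697 genes, changed less. Where 1 siURM1 library remained, it was assumed to vary like the other groups.

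**Figure D1:**
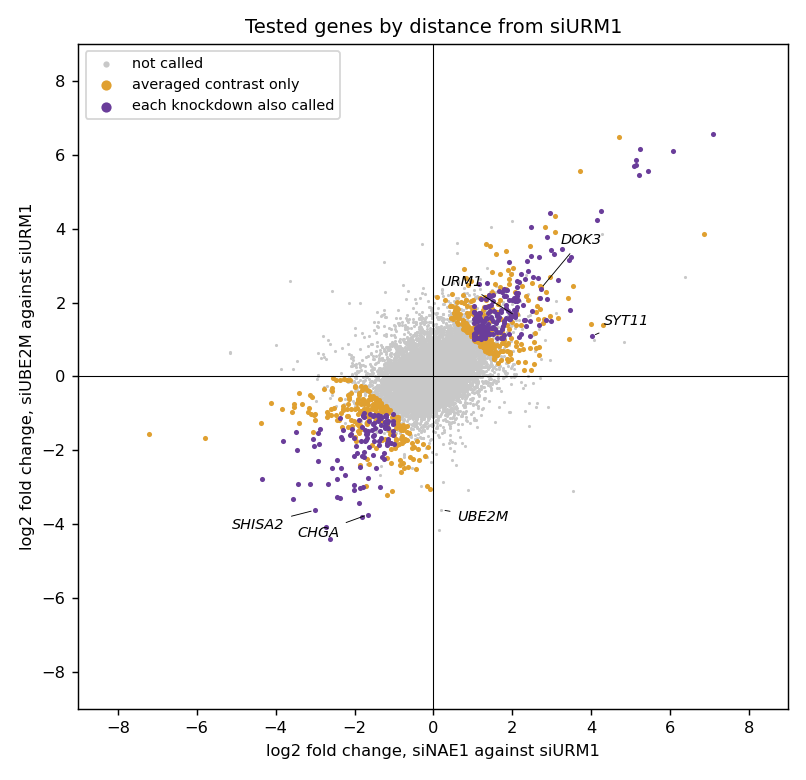
Each point is 1 of the 18368 genes tested, placed by its log2 fold change of siNAE1 against siURM1 (x axis) and of siUBE2M against siURM1 (y axis). Purple points are the 307 genes called in each knockdown as well as on the average, orange points the other 478 called genes, and grey points the genes not called. The called genes fill the upper right and lower left by construction. The points above about 4 on both axes are mainly genes with no count in either siURM1 library, whose fitted values are not bounds.

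Among genes of at least 10 CPM, those that stood furthest above siURM1 in both neddylation knockdowns included DOK3, PRRG4, AIDA, URM1 itself, RGL1, KIF5C, TTLL7, FBXL19-AS1, TBCE, PAQR6 and POLR3GL. DOK3, an adaptor protein that restrains tyrosine kinase signalling, was at 20.4, 19.3 and 21.0 CPM in siNAE1 cells, 14.4, 17.6 and 15.6 CPM in siUBE2M cells, and 2.75 and 3.39 CPM in siURM1 cells. All neddylation libraries were above both siURM1 libraries, and the log2 fold change of the average was 2.55 (SE 0.16, adjusted p = 7.9e-14).

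KIF5C, a kinesin heavy chain that moves cargo along microtubules, was at 93.3, 86.8 and 82.4 CPM in siNAE1 cells, 51.9, 52.8 and 48.0 CPM in siUBE2M cells, and 19 and 16.2 CPM in siURM1 cells. TTLL7, which adds glutamate chains to tubulin, was 1.57 higher on the log2 scale (SE 0.10), at 39.7 to 48.6 CPM in the 6 neddylation libraries against 14.9 and 14.3 CPM. TBCE, a tubulin-folding cofactor, was 1.47 higher (SE 0.15), but the deposited table lists it under 2 identifiers that overlap on the same strand, and the other entry differed by only 0.02, so fragments may have been split between them. These 3 genes of the microtubule system were named by the rule on size and were not a list of their own. AIDA, an axin-interacting protein, was at 36.1 to 50.5 CPM in the neddylation libraries against 11.2 and 11.8 CPM in siURM1 cells. BROX overlaps AIDA on the opposite strand and was 0.28 higher. PRRG4, a transmembrane protein with a Gla domain, was at 19.6 to 23.6 CPM against 4.06 and 6.58 CPM.

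The other higher genes of this group were RGL1, an exchange factor for RAL (log2 fold change 1.74, SE 0.17), PAQR6, a membrane progestin receptor (1.45, SE 0.13), POLR3GL, a subunit of RNA polymerase III (1.60, SE 0.18), and the antisense transcript FBXL19-AS1 (1.53, SE 0.14). In each of them all 6 neddylation libraries lay above both siURM1 libraries. RGL1 and TBCE differed from the others in where the control lay: RGL1 was at 3.75 to 4.95 CPM in control cells, next to the 4.24 and 3.05 CPM of siURM1 cells, so that the neddylation knockdowns were the groups away from the baseline. FBXL19-AS1 overlaps FBXL19 on the opposite strand, which itself was -0.25 on the log2 scale. The strand setting of the counting is not given in the sources used here, so fragments of the 2 genes cannot be told apart.

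**Figure D2:**
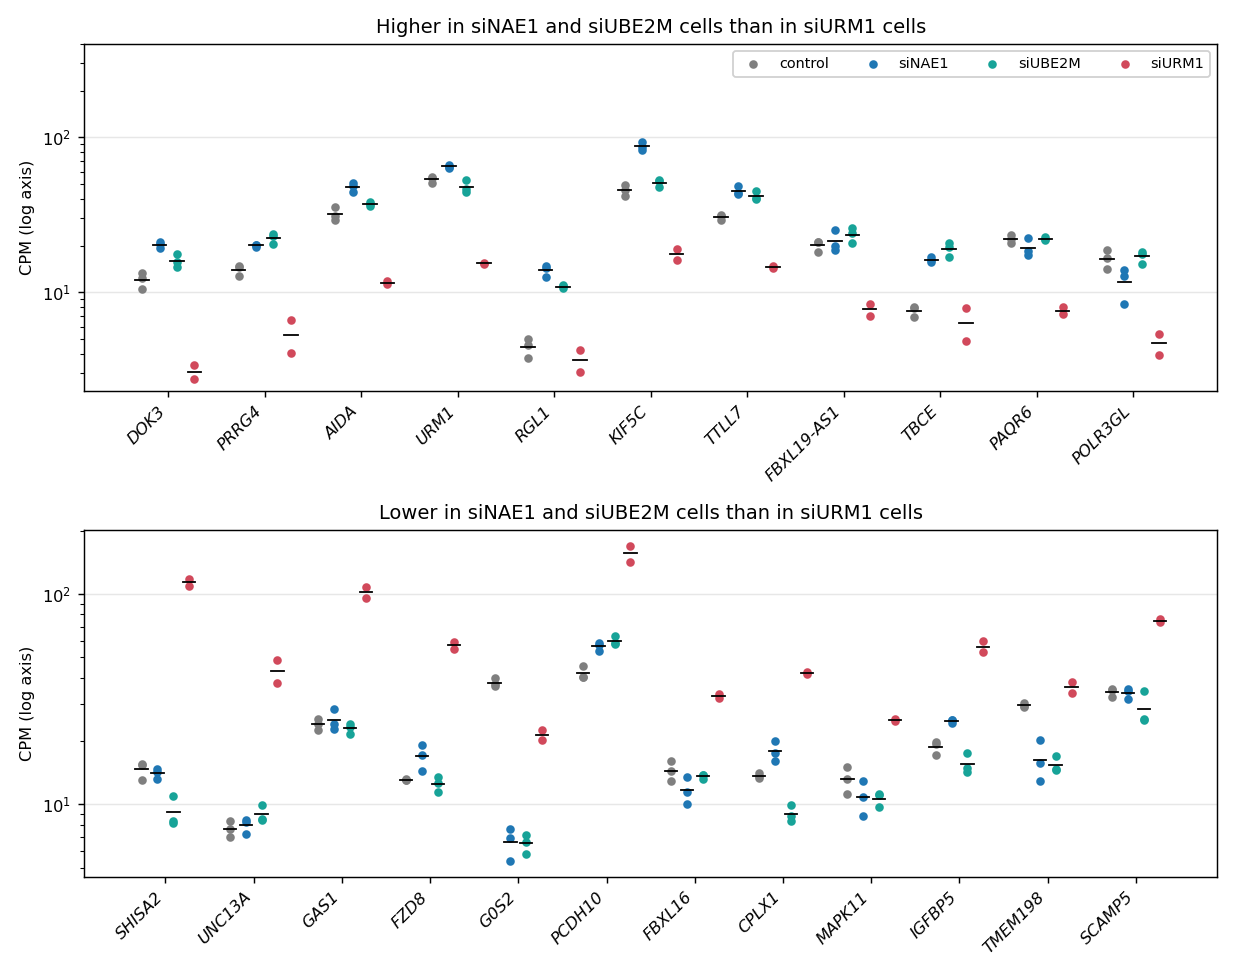
CPM on a log axis for 11 genes far above siURM1 (upper panel) and the 12 furthest below it (lower panel) in both neddylation knockdowns. Each point is 1 library and each black bar a group mean, with 3 control, 3 siNAE1, 3 siUBE2M and 2 siURM1 libraries. The siURM1 points of SHISA2, at 109 and 118 CPM, stand far above all 9 others, while those of DOK3, at 2.75 and 3.39 CPM, stand below all others.

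On the lower side, the 12 genes were SHISA2, UNC13A, GAS1, FZD8, G0S2, PCDH10, FBXL16, CPLX1, MAPK11, IGFBP5, TMEM198 and SCAMP5. SHISA2, an endoplasmic reticulum protein that retains Frizzled and FGF receptors, was at 14.3, 14.7 and 13.2 CPM in siNAE1 cells, 8.17, 11.0 and 8.36 CPM in siUBE2M cells, and 109 and 118 CPM in siURM1 cells. Its log2 fold change of -3.32 (SE 0.09, adjusted p = 1.7e-23) came with control libraries at 13.1, 15.6 and 15.3 CPM, so the siURM1 libraries alone were high. FZD8, a Frizzled receptor for Wnt ligands, was also highest in the siURM1 libraries, at 11.4 to 19.2 CPM in the neddylation libraries, 13.1 to 13.2 CPM in control cells and 59.4 and 54.9 CPM in siURM1 cells (-1.98, SE 0.09). GAS1, a membrane protein that binds Hedgehog ligands, was at 21.7 to 28.4 CPM in the neddylation libraries against 109 and 95.8 CPM (-2.08, SE 0.08).

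UNC13A, which primes synaptic vesicles, was at 8.22, 7.27 and 8.43 CPM in siNAE1 cells, 8.39, 9.97 and 8.57 CPM in siUBE2M cells, and 48.6 and 37.6 CPM in siURM1 cells (-2.35, SE 0.11). CPLX1, a complexin that clamps SNARE complexes, was at 16.1 to 20.1 CPM in siNAE1 cells, 8.32 to 9.90 CPM in siUBE2M cells, and 41.7 and 42.8 CPM in siURM1 cells. SCAMP5, a secretory carrier membrane protein, was -1.27 on the log2 scale (SE 0.09). In all 3 genes, which the rule on size named and which were not a list of their own, the neddylation libraries and the siURM1 libraries did not overlap. SCAMP5 overlaps RPP25 (itself at -0.55) on the opposite strand, so that fragments may be shared. PCDH10, a protocadherin, was at 53.6 to 63.1 CPM against 170.0 and 143 CPM, and IGFBP5, which binds insulin-like growth factors, at 14.3 to 25.3 CPM against 59.5 and 53 CPM.

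G0S2, an inhibitor of the lipase ATGL, had another order. It was at 7.6, 5.38 and 6.91 CPM in siNAE1 cells, 5.82, 6.62 and 7.16 CPM in siUBE2M cells, and 20.3 and 22.6 CPM in siURM1 cells, while the control libraries were highest at 36.6, 39.8 and 37.2 CPM. All 3 knockdowns were below the control, and the neddylation knockdowns further so (-1.71, SE 0.12). TMEM198, a membrane protein, was at 13.0 to 20.2 CPM in the neddylation libraries and 38.0 and 33.9 CPM in siURM1 cells, with the control at 29.0 to 30.3 CPM. CHPF overlaps TMEM198 on the opposite strand and was at -0.30. FBXL16, an F-box protein (-1.38, SE 0.11), and MAPK11, the beta form of the p38 kinase (-1.23, SE 0.12), completed the set. The noncoding genes of this size on the lower side were AL139246.5 (-1.43), which overlaps HES5 (itself at -1.62) on the opposite strand, so that fragments may be shared, and MIR222HG (-1.17), the host transcript of the miR-221 and miR-222 cluster, and AL645608.7 was 1.53 higher.

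Over the 442 higher genes, the control level was nearer to the neddylation knockdowns in 277 and nearer to siURM1 in 165. Their median log2 fold change against control was -0.98 in siURM1 cells and 0.56 for the averaged neddylation knockdowns. Over the 343 lower genes, the control was nearer to the neddylation knockdowns in 178 and nearer to siURM1 in 165, with medians of 0.75 and -0.64. The control lay between the knockdowns in 316 of the higher and 197 of the lower genes, so that in most called genes siURM1 and the neddylation knockdowns lay on opposite sides of it. These positions share the knockdown libraries with the calls and were not tested.

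**Figure D3:**
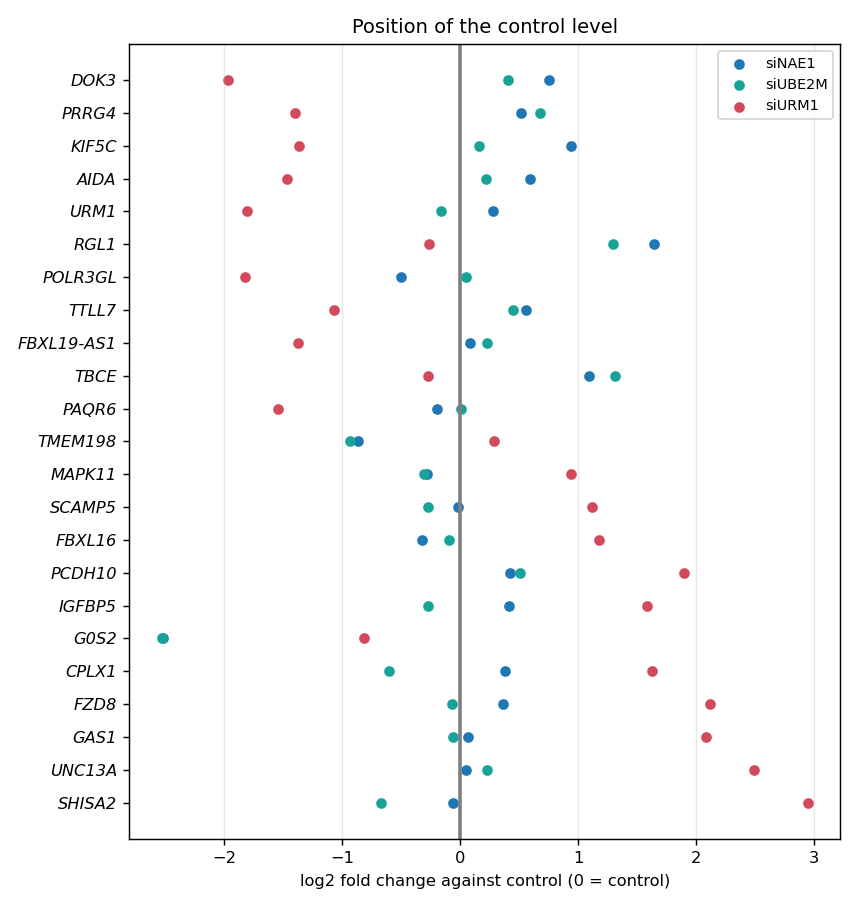
Log2 fold change against the control libraries (grey line at 0) for 11 genes far above siURM1 (upper rows) and the 12 furthest below it (lower rows), with 1 point for each knockdown group. For SHISA2, GAS1, FZD8 and UNC13A the siNAE1 and siUBE2M points lie within 0.67 of the control while siURM1 is 2.09 to 2.95 above it, and for RGL1 and TBCE siURM1 lies 0.27 below it.

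Apart from URM1, no gene of the pathways themselves was called. Of the 13 genes of the NEDD8 cascade none was called on the same side of siURM1, 2 were higher and 5 lower at the adjusted p alone, where 2812 genes were higher (15.3%) and 3024 lower (16.5%) over all genes tested. NAE1 and UBE2M are the targets and set their own values: UBE2M passed both thresholds on the average (-1.70), but siNAE1 cells lay above and siUBE2M cells below siURM1. RNF7, a RING partner of cullins, was at 55.4, 55.2 and 62.7 CPM in siNAE1 cells, 38.5, 35.1 and 45.4 CPM in siUBE2M cells, and 68.6 and 79.7 CPM in siURM1 cells (-0.63, SE 0.09). DCUN1D1, a co-E3 that brings UBE2M to cullins, was 0.44 higher (SE 0.11), and NEDD8 itself was 0.27 higher (SE 0.09). NEDD8 was at 0.47 in siNAE1 and 0.07 in siUBE2M cells. SENP8, the protease that matures NEDD8, was -0.43 (SE 0.16) and its 2 distances differed, with -0.83 in siNAE1 and -0.03 in siUBE2M cells.

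UBA3, the partner of NAE1, had a log2 fold change of -0.04 (SE 0.07), RBX1 -0.02 (SE 0.07), and UBE2F, the other NEDD8 E2, -0.23 (SE 0.14), and none of these passed the test. DCUN1D4 and DCUN1D3 were lower by small amounts (-0.21 and -0.36), and DCUN1D2 (0.09) and DCUN1D5 (0.06) did not pass. Among 20 cullin, CAND1 and COP9 signalosome genes none was called, with COPS6 at -0.33 the one furthest from 0, and among 43 substrate receptors none was called, with FBXO11 at 0.83. FBXO11, an F-box protein, was higher in siUBE2M cells (1.33) than in siNAE1 cells (0.33).

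In the URM1 thiolation pathway only URM1 itself was called. At the adjusted p alone, NFS1, the cysteine desulfurase that supplies the sulfur, was 0.43 higher (SE 0.08) and CTU2, a subunit of the thiolase, 0.30 higher (SE 0.10). MOCS3, the enzyme that activates URM1, was at 18.1, 18 and 16.1 CPM in siNAE1 cells, 13.7, 12 and 13.8 CPM in siUBE2M cells, and 22.2 and 21.5 CPM in siURM1 cells (-0.53, SE 0.10). The sulfurtransferases TST (-0.37) and MPST (-0.29) were also lower, while CTU1 (0.04) and LYRM4 (-0.14) did not pass. TST was at -0.04 in siNAE1 and -0.70 in siUBE2M cells, and MPST at -0.49 and -0.10. None of the 10 genes of Elongator and its partners, which place the side chain that precedes thiolation, was called. ELP6 (-0.49) and KTI12 (-0.51) were lower, and ELP2, ELP3, ELP4, ELP5, DPH3, TRMT112 and ALKBH8 lay between -0.18 and 0.07 without passing. KTI12 was at -0.10 in siNAE1 cells, which did not pass, and at -0.92 in siUBE2M cells.

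Among genes of DNA replication and mitosis more were higher than lower in the neddylation knockdowns, mostly by small amounts. Of 51 mitosis genes, 25 were higher and 3 lower at the adjusted p alone, with a median log2 fold change of 0.22 beside a median of -0.00062 over all genes tested, and none reached the fold threshold. CDCA2, a partner of protein phosphatase 1 on chromosomes, was furthest at 0.98 (SE 0.11), followed by MKI67, the Ki-67 antigen (0.72), and ASPM (0.67), while AURKB (-0.42), CENPE (-0.37) and MAD2L1 (-0.33) were lower. Of 55 genes of G1/S and replication, 22 were higher and 4 lower (median 0.15), among them MCM3 (0.79) and CCNE2 (0.69) on the higher and CCNE1 (-0.39) on the lower side. The mitosis median was 0.37 in siUBE2M cells and 0.06 in siNAE1 cells.

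RPA2, a subunit of the single-stranded DNA binding protein RPA, was the one member called. It was at 275, 299 and 297 CPM in siNAE1 cells, 256, 233 and 271 CPM in siUBE2M cells, and 105 and 118 CPM in siURM1 cells, with the control between them at 193 to 215 CPM (1.28, SE 0.07, adjusted p = 4.0e-15). Of 30 substrates of cullin ligases, which are known mainly as proteins held low by degradation, 6 transcripts were higher and 11 lower at the adjusted p alone. DEPTOR, an inhibitor of mTOR, was called (-1.13, SE 0.20, but -0.99 without siURM1 replicate 1), and CDKN1C, RHOB, MYC and CCND1 lay between -0.99 and -0.73. The p53 targets had 11 higher and 3 lower of 28 genes and a median of 0.31. EDA2R, a membrane receptor, was the one called (1.19, SE 0.15), and FAS was 0.96 higher. EDA2R was at 10.7 to 13.4 CPM in the neddylation libraries against 5.30 and 4.78 CPM in siURM1 cells.

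**Figure D4:**
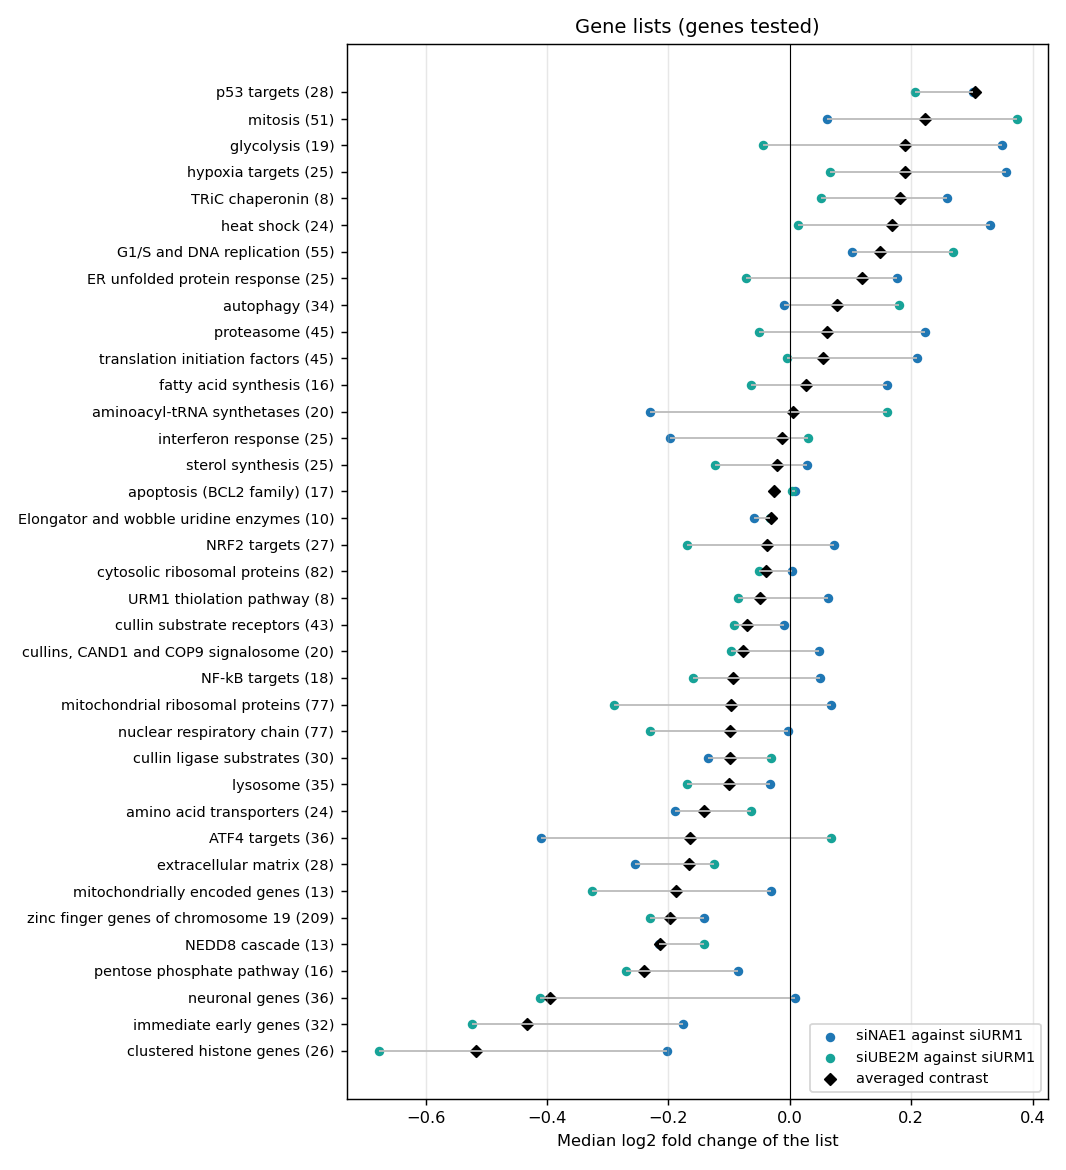
Median log2 fold change against siURM1 of gene lists, cell type markers left out, with the number of genes tested in parentheses, for siNAE1 (blue), siUBE2M (green) and their average (black diamonds). The grey lines join the 2 knockdowns. Mitosis (0.22) and p53 targets (0.31) are at the upper end of the lists drawn, and clustered histone genes (-0.52), immediate early genes (-0.43) and neuronal genes (-0.39) are at the lower end, the last with a median of 0.01 in siNAE1 and -0.41 in siUBE2M cells.

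EIF4G2, a translation initiation factor related to eIF4G, was measured with a small error. It was at 1291, 1301 and 1194 CPM in siNAE1 cells, 812, 789.7 and 790.4 CPM in siUBE2M cells, and 367 and 363 CPM in siURM1 cells (1.46, SE 0.06, adjusted p = 3.6e-18). The control libraries, at 634 to 688 CPM, lay between siUBE2M and siURM1 cells. CTR9 overlaps it on the opposite strand and was 0.55 higher. Among the other 44 initiation factors tested none was called.

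HSP90AA1, the inducible cytosolic HSP90, was at 1754, 1922 and 1778 CPM in siNAE1 cells, 1160.5, 1101 and 1154 CPM in siUBE2M cells, and 678 and 659 CPM in siURM1 cells. The control was at 685 to 733 CPM, so the neddylation knockdowns were the groups away from the baseline (1.11, SE 0.06). Of 24 heat shock genes 10 were higher and 3 lower at the adjusted p alone, among them CHORDC1 (0.80), HSP90AB1 (0.74), DNAJB1 (0.55) and HSPA8 (0.50) on the higher side and HSPE1 (-0.41), HSPB1 (-0.34) and HSF1 (-0.25) on the lower side. The median of the list was 0.33 in siNAE1 cells and 0.01 in siUBE2M cells. All 5 of the 8 TRiC chaperonin genes that passed were higher, by 0.16 to 0.28.

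Of 25 genes of the endoplasmic reticulum unfolded protein response, 8 were higher and 5 lower, and ATF6, its membrane-bound transcription factor, was called. ATF6 was at 70.0, 69.6 and 61.4 CPM in siNAE1 cells, 80.2, 76.7 and 74.3 CPM in siUBE2M cells, and 32.6 and 30.4 CPM in siURM1 cells (1.19, SE 0.08). The control was highest, at 88.2 to 94.2 CPM. SLC2A1, the glucose transporter GLUT1, was the called member of the hypoxia targets, at 46.6 to 68.7 CPM in the neddylation libraries against 26.6 and 27.5 CPM (1.07, SE 0.08), and 9 of the 25 hypoxia targets were higher and 4 lower. Of 19 glycolysis genes 7 were higher and 3 lower, with ENO2 at 1.15 in siNAE1 and 0.07 in siUBE2M cells.

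The targets of ATF4, the factor of the integrated stress response, had unequal medians in the 2 knockdowns. Of 36 genes, 6 were higher and 13 lower at the adjusted p alone, with a median of -0.41 in siNAE1 cells and 0.07 in siUBE2M cells. NUPR1, a stress-induced nuclear protein, was at 2.84, 2.45 and 4.31 CPM in siNAE1 cells, 9.13, 9.77 and 11.2 CPM in siUBE2M cells, and 17.3 and 19 CPM in siURM1 cells, with the control highest at 41.5 to 43.5 CPM. ALDH1L2, a mitochondrial folate enzyme, had the same order, at 22.6 to 28.3, 69.0 to 90.1, 111 to 124 and 198 to 233 CPM, and it was not called (-1.12) when the 6 neddylation libraries formed 1 group. ATF4 itself was 0.50 higher. KARS, the lysyl-tRNA synthetase, was the furthest of 20 synthetases, none of them called, at -0.65 (SE 0.06).

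H6PD, the hexose-6-phosphate dehydrogenase of the endoplasmic reticulum, was at 20.9 to 21.3 CPM in siNAE1 cells, 32.4 to 35.6 CPM in siUBE2M cells, and 63.3 and 60.7 CPM in siURM1 cells. The siURM1 libraries overlapped the control range of 61.4 to 66.5 CPM, so the neddylation knockdowns alone were low (-1.20, SE 0.08). Of the 16 pentose phosphate genes 7 were lower and 1, PGM2, was higher. CTSB, a lysosomal cysteine protease, was at 27.9 to 29.1 CPM in siNAE1 cells, 89.9 to 102 CPM in siUBE2M cells, and 148 and 147 CPM in siURM1 cells (-1.49, SE 0.07). It was not called (-1.23) when the 6 neddylation libraries formed 1 group. Of 35 lysosome genes 11 were lower and 5 higher. The NRF2 targets had 5 higher and 6 lower of 27, with the transporter ABCC2 called (1.31, SE 0.30, but 0.92 and not called without siURM1 replicate 1).

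Among genes of the respiratory chain and of the mitochondrial ribosome more were lower than higher. Of 77 nuclear-encoded subunits 27 were lower and 4 higher (median -0.10), of 77 mitochondrial ribosomal proteins 24 were lower and 7 higher (median -0.10), and of 13 mitochondrially encoded genes 7 were lower and none higher (median -0.19). No gene of these 3 lists was called. The furthest nuclear-encoded genes of the first 2 lists went the other way: MRPL53, a protein of the large mitochondrial ribosomal subunit, was 0.94 higher (SE 0.15) and NDUFA13, a subunit of complex I, 0.77 higher (SE 0.19). MT-ND2, another subunit of complex I, was furthest among the mitochondrially encoded genes (-0.56, SE 0.06), and COX5A, of cytochrome c oxidase, was at -0.52. The medians of the 3 lists were -0.23, -0.29 and -0.33 in siUBE2M cells and -0.00224, 0.07 and -0.03 in siNAE1 cells, a difference that was not tested over the lists. The 82 cytosolic ribosomal protein genes had a median of -0.04, with 12 higher and 9 lower.

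The neuronal list held 5 of its 36 tested genes called lower and 1 called higher, against 14 lower and 5 higher at the adjusted p alone. CHGA, the granule protein chromogranin A, was at 5.61, 6.01 and 6.19 CPM in siNAE1 cells, 0.884, 1.18 and 2.11 CPM in siUBE2M cells, and 19.7 and 17.8 CPM in siURM1 cells (-2.70, SE 0.17). SCG3, a granin that sorts secretory granules, was -2.61 (SE 0.22), and STMN2, a tubulin-binding protein of growing axons, -2.38 (SE 0.44). The other 2 were SYN1, a synaptic vesicle phosphoprotein (-1.42), and NRXN2, a presynaptic adhesion protein (-1.03). SYT11, a vesicle protein of the synaptotagmin family, went the other way, at 37.6, 36.4 and 35.2 CPM in siNAE1 cells, 5.38, 4.46 and 4.49 CPM in siUBE2M cells, and 2.37 and 2.08 CPM in siURM1 cells. Its log2 fold change was 2.56 (SE 0.18), and 3.20 but not called when the 6 neddylation libraries formed 1 group.

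Promoters of some called genes were read in the RefSeq table (GRCh38, 250 bases before to 50 after the annotated start). A motif was picked for each group of genes, and other motifs were not searched. Motifs and genes were chosen after the values had been seen, so the matches are descriptions. For the granule and vesicle genes the motif was the cAMP response element TGACGTCA, its own reverse complement, which 1.98% of 27305 promoters hold. It was found in CHGA and SYN1 and not in SCG3, while no entry was used for NRXN2 and STMN2 was not searched. The windows are given on the strand of the gene with the motif in capitals, for CHGA at chr14:92923087-92923112 (plus strand, motif from position -54) and for SYN1 at chrX:47620000-47620025 (minus strand, position -159).
CHGA: cggcaccgcTGACGTCAtttccgggg
SYN1: aaggcgcgcTGACGTCActcgccggt

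The immediate early genes, which respond to growth factors within minutes, had 3 genes called lower and 1 higher of 32 tested. At the adjusted p alone 14 were lower and 4 higher, with a median of -0.43. JUNB, an AP-1 factor, was at 25.9 to 32.7 CPM in siNAE1 cells, 13.5 to 14.8 CPM in siUBE2M cells, and 50.0 and 46.4 CPM in siURM1 cells (-1.25, SE 0.10), with the control lowest at 8.33 to 11.4 CPM. EGR1 (-0.97), FOS (-0.87) and DUSP1 (-0.68) were lower as well. CYR61 and CTGF, secreted matricellular proteins and known targets of YAP and TEAD, were -1.02 (SE 0.11) and -1.15 (SE 0.29). CYR61 was not called without siURM1 replicate 2 (-0.86), siNAE1 replicate 3 (-0.97) or siUBE2M replicate 1 (-0.99), nor with the replicate block (-0.95). CTGF was not called without siURM1 replicate 1, at -1.0. EGR3 was called higher (1.36, SE 0.41), at 4.46 to 5.47 CPM in siNAE1 cells but at 0.736 to 2.11 CPM in siUBE2M and 0.998 and 0.9 CPM in siURM1 cells, and it was not called without siURM1 replicate 1 (1.43) or replicate 2 (1.29), nor when the 6 neddylation libraries formed 1 group (1.65).

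The TEAD core GGAATG, searched on both strands, occurs in 14% of the 27305 promoters. The promoter of CTGF, listed as CCN2, holds it 3 times on the strand of the gene, at positions -169, -104 and -95, and no entry was used for CYR61. The windows lie on the minus strand at chr6:131951526-131951551 and chr6:131951452-131951477, the latter with the element nearest to the start.
CTGF, element at -169: ttcagacggaGGAATGctgagtgtca
CTGF, element at -95: aggaatgcgaGGAATGtccctgtttg

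Targets of NF-kB, a factor whose inhibitor is degraded by a cullin ligase, had 3 genes called higher and none lower of 18 tested, while the median of the list was -0.09 and changed sign without siURM1 replicate 1 (0.06). CD83, a surface protein of the immunoglobulin family, was at 13.0 to 17.5 CPM in the neddylation libraries and 6.43 and 8.24 CPM in siURM1 cells (1.04, SE 0.14), close to the fold threshold. It was not called without siURM1 replicate 1 (0.86), siUBE2M replicate 3 (0.99) or siNAE1 replicate 2, nor with the replicate block (0.99). CXCL8, the chemokine interleukin-8, had 11, 34 and 21 counts in siNAE1, 15, 9 and 5 counts in siUBE2M and 2 and 5 counts in siURM1 libraries, and its fitted log2 fold change was 2.18 (SE 0.67) and 1.61 without siURM1 replicate 1, when it was not called. BIRC3, an inhibitor of apoptosis, had 10, 14 and 9 counts, 7, 4 and 11 counts, and 2 counts in each siURM1 library. Its ratio of neddylation to siURM1 cells was 5.14, with a 95% counting interval of 1.90 to 19.5, and it was not called when either siURM1 library was left out (2.19 without replicate 1 and 2.33 without replicate 2).

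The kappaB core searched was GGNNTTTCC on either strand, which 6.26% of the promoters hold. CXCL8 has it on its own strand at position -91 (window chr4:73740470-73740495, plus strand) and BIRC3 on the opposite strand at position -199 (window chr11:102317277-102317302, plus strand), so that the capitals of BIRC3 show its reverse complement. The promoter window of CD83 holds no match.
CXCL8: caaatcgtGGAATTTCCtctgacata
BIRC3: tgggtcatGGAAATCCCcgagtgggt

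Zinc finger genes of chromosome 19, a family of clustered repressors that share long stretches of sequence, had 49 genes lower and 5 higher of 209 tested at the adjusted p alone, with a median of -0.20 and of -0.14 and -0.23 in siNAE1 and siUBE2M cells. Both called genes were lower, ZNF66 (-2.06, SE 0.57) and ZNF233 (-1.29, SE 0.38). These 2 were at most 1.75 CPM in the neddylation libraries, and neither was called without siURM1 replicate 1, at -2.05 and -1.28. Because the members are near-copies, fragments may have been divided among them. Of 71 histone genes of the clusters, whose transcripts mostly lack poly(A) tails, 26 were tested, with a median of -0.52 and HIST1H3B (-1.57) and HIST1H4E (-1.24) called lower. At the adjusted p alone 3 were higher and 5 lower, and the clusters took 0.0235 to 0.0245% of counts in siNAE1, 0.0163 to 0.0171% in siUBE2M and 0.0216 and 0.0232% in siURM1 libraries. HIST1H3B had 4, 11 and 11 counts in siNAE1, 5, 16 and 7 in siUBE2M and 26 and 34 in siURM1 libraries. Neither histone call held in every setting: HIST1H4E was at -0.93 without siURM1 replicate 1, and HIST1H3B at -1.29 without siURM1 replicate 2.

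Other lists held single called genes. COL6A3, a collagen, had 2, 2 and 1 counts in siNAE1, 13, 13 and 10 in siUBE2M and 28 and 22 in siURM1 libraries, a ratio of neddylation to siURM1 cells of 0.306 with a 95% counting interval of 0.198 to 0.472. It was not called (-1.71) when the 6 neddylation libraries formed 1 group. Of the 28 matrix genes 10 were lower and 2 higher. The interferon list had 3 higher and 6 lower of 25, with BST2 (-1.09) and DDX60 (-1.09) called. BST2 stood at -0.72 without siURM1 replicate 2, and DDX60 at -0.79 without siURM1 replicate 1. BST2 was at -0.43 in siNAE1 and -1.75 in siUBE2M cells, and DDX60 at -1.81 and -0.37. In both genes the neddylation and siURM1 libraries overlapped. No gene was called among sterol synthesis (3 higher and 6 lower of 25), fatty acid synthesis (3 and 3 of 16), the proteasome (8 and 4 of 45), autophagy (9 and 2 of 34), the BCL2 family (2 and 3 of 17) and amino acid transporters (4 and 6 of 24). INSIG1, which holds SREBP in the endoplasmic reticulum, was at 247 to 255 CPM in siNAE1 cells, 100.1 to 106 CPM in siUBE2M cells, and 326 and 313 CPM in siURM1 cells, just under the fold threshold (-0.99).

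Markers of the cells and of others moved as follows. Of the 10 HEK293T markers PAX2, a kidney transcription factor, was called lower, at 4.34 to 9.87 CPM in the neddylation libraries against 19.7 and 18.3 CPM in siURM1 cells (-1.41, SE 0.13), and 3 were higher and 4 lower at the adjusted p alone. The summed level of the 10 was 737 to 763 CPM in siNAE1, 556 to 571 CPM in siUBE2M and 700.5 to 709 CPM in siURM1 cells. Of 10 blood cell markers 2 were at 0 in all libraries, and the rest summed to 5.80 to 9.36, 8.64 to 8.82 and 3.67 to 4.49 CPM. One of them, CD14, was called higher (1.63, SE 0.41), with 12 counts in each siURM1 library. Epithelial markers summed to 36.2 to 50.5 CPM and fibroblast markers to 25.7 to 39.9 CPM over the knockdown libraries, with none called. The part of these markers in the results was not tested.

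In 11 of the 442 higher genes both siURM1 libraries had no count, and in 61 they had at most 3 counts each. SSTR1, a somatostatin receptor named here after its values were seen, had 21, 17 and 7 counts in siNAE1 and 18, 10 and 6 in siUBE2M libraries, and was at least 9.88-fold higher than in siURM1 cells when the siURM1 group was set to a floor of 3 counts over both libraries. The bounds of the other 10 genes were 2.56-fold or more. Floors and counting intervals cover counting error only.

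The called lower genes were richer in G and C than the genes tested. Among protein-coding genes with an annotated transcript, the median GC content was 55.5% in 234 lower genes, 49.9% in 283 higher genes and 48.9% over all tested, and the median exon number was 6, 8 and 9. URM1 is needed for thiolation of the tRNAs that read AAA, CAA and GAA. These codons made up 3.57% of codons in the median lower gene, 5.21% in the median higher gene and 5.96% in the median gene tested, but codon use follows GC content. For higher genes the order turned with the genes taken. Called genes of at least 10 CPM had medians of 46.1% GC content and 7.86% of these codons on the higher side, against 47.8 and 6.44% over all genes tested at that level, and genes higher at the adjusted p alone had 48.1 and 6.74%. On the lower side the called genes of at least 10 CPM were at 55.5 and 3.51%. Within each of 5 equal bins of transcript GC content, genes higher at the adjusted p alone held more of these codons than lower ones, with medians of 12.1 against 10.4% in the bin of lowest GC content and 2.08 against 2.01% in the bin of highest GC content.

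The libraries also differed in how their counts depended on GC content. Relative to each gene's mean over the knockdown libraries, the median gene in the bin of lowest GC content lay between -0.10 in siNAE1 replicate 3 and 0.09 in siUBE2M replicate 1 on the log2 scale, and in the bin of highest GC content between -0.10 in siUBE2M replicate 1 and 0.14 in siNAE1 replicate 3. After removal of such trends from each library 802 genes were called, 774 of them among the 785. The codon shares are descriptions across genes, which are not independent, and were not tested. Across chromosomes, the share of tested genes called lay between 1.52 and 3.25% on the higher side and between 0.839 and 3.16% on the lower side, with medians from -0.05 to 0.05.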

How the data were processed

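Messenger RNA libraries of HEK293T cells were strand-specific and read as paired ends. Per the study's methods and processing notes, the authors used fastp for trimming, HISAT2 2.0.5 for alignment to GRCh38, and counted fragments with featureCounts 1.5.0-p3. The deposited counts are whole numbers per gene without normalization. The deposited FPKM values, computed by the authors from the same fragments and a gene length, were not used in any test. Annotation version and strand setting are not given in the sources used here.

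Groups came from the labels. The 11 libraries entered one edgeR 4.0.16 quasi-likelihood fit with 4 groups (R 4.3.3), after filterByExpr (18368 of 58735 genes kept) and TMM scaling. The averaged contrast weighted siNAE1 and siUBE2M equally against siURM1. A call needed an adjusted p (Benjamini-Hochberg) under 0.05, a log2 fold change that reached 1 or -1, and both knockdowns on the same side. All p-values were adjusted over all genes tested. CPM used TMM-scaled totals, and SE is the fold change divided by the root of F. A prior count of 2 entered only the log2 CPM values behind the replicate correlations and GC trends. The log2 fold changes kept edgeR's default. Named genes were all members of the NEDD8, URM1 and Elongator lists, the 12 genes per direction with the largest smaller distance at a mean of at least 10 CPM, up to 4 called genes per other list (or the furthest gene), and 2 noncoding genes per direction. A few genes and a list that the rule selects are not reported here. Other genes named from lists were chosen after their values were seen. The members and the 43 gene lists were chosen with earlier results of these data known, and the lists are described by counts and medians without a set test.

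Ratios carry exact conditional binomial intervals (95%), and the floor was 3 counts. Transcript GC content and codons came from GENCODE 44, promoters from RefSeq. Whether replicates came from separate cultures is stated by the labels only as biological replicates. Alternatives were RLE scaling, DESeq2 1.42.0, no filter, at least 10 counts in every library, the 8 knockdown libraries alone, a replicate block, no fold change threshold, glmTreat, protein-coding genes, 1 group of 6 libraries, leaving out each library and, chosen after seeing the data, removal of GC trends. Figures were drawn with Python 3.11.15 and matplotlib 3.10.9.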

Additional observations from a re-analysis of the deposited data

Results flagged for a closer look

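Although they lay on the same side of siURM1, siNAE1 and siUBE2M differed from each other by both thresholds (adjusted p and fold, edgeR's quasi-likelihood test) in 167 of the 785 called genes, which is 21.3%, against 7.84% of all genes tested. A gene with unequal distances from siURM1 can pass on the average through 1 knockdown, so these shares are not independent of the call. Values below are log2 fold changes of siNAE1 against siUBE2M.

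Of the called genes that the rules named, 6 were lower in siNAE1 than in siUBE2M cells by both thresholds. The difference was -2.61 in COL6A3, -2.09 in ZNF66, -1.76 in CTSB, -1.67 in NUPR1, -1.65 in ALDH1L2 and -1.44 in DDX60. In all 6 the siNAE1 libraries did not overlap the siUBE2M libraries.

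The other 6 were higher in siNAE1 cells. The difference was 1.32 in CXCL8, 1.32 in BST2, 1.39 in HIST1H4E, 1.93 in EGR3, 2.08 in CHGA and 2.93 in SYT11. In SYT11 the 3 siNAE1 libraries, at 35.2 to 37.6 CPM, stood apart from all 5 other knockdown libraries, which were at 2.08 to 5.38 CPM.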

How the results depend on the processing

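The 785 same-side genes and the 307 genes called in each knockdown became 388 and 183 with at least 10 counts in every library, 80 and 35 with glmTreat (31 higher and 49 lower on the average), and 5836 and 2882 without a fold change threshold. Treating the 6 neddylation libraries as 1 group gave 429 genes on the average, and protein-coding genes alone gave 518. DESeq2 gave 612 and 240. When each library in turn was left out, the counts were 625 to 806 and 260 to 305, the lowest without siURM1 replicate 1. With the replicate number as a block the counts were 764 and 298. The numbers did not pair the samples: same-numbered libraries of different groups had deviations that correlated at -0.07 to 0.08 over 15 pairs. The shift of the median over all genes stayed under 0.03 in every setting except protein-coding genes alone and no fold change threshold, for which it was not computed. Of 1110 alternative values of the 59 named called genes, 1073 kept direction and call, 37 lost the call and none changed direction. This tally leaves out glmTreat, the fit without a fold change threshold and protein-coding genes alone, which were run for the counts of genes only. With the 6 neddylation libraries as 1 group these were ALDH1L2, BST2, COL6A3, CTSB, CXCL8, DDX60, EGR3, HIST1H4E, SYT11 and ZNF66. The siURM1 group had 2 libraries, and 107 higher and 118 lower called genes were under 1 CPM. The cause of the changes was not tested.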

Other observations

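On the average, 8 genes passed both thresholds while the knockdowns lay on opposite sides of siURM1: UBE2M, SCART1, PILRA, CYP2E1, KISS1R, ERAP2, LGR6 and GRM4. SCART1 was at a mean of 2.33 CPM in siNAE1, 17.5 CPM in siUBE2M and 17.3 CPM in siURM1 cells, so 1 knockdown carried the average. PILRA was at 2.21, 13.9 and 2.67 CPM in the same order, and KISS1R, the kisspeptin receptor, at 7.17, 1.40 and 1.54 CPM.

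In 3 genes both knockdowns were called against siURM1 in opposite directions, and none passed on the average. PAMR1 had log2 fold changes of 1.22 in siNAE1 and -1.05 in siUBE2M cells, THBS4, a thrombospondin, -1.81 and 1.18, and DLX2-DT -1.40 and 1.33.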
